A study of Mus musculus with 6 samples.

Results

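The genes described here are the ligands and receptors of the tumour necrosis factor (TNF) superfamily, taken as every array feature whose annotated mouse symbol begins with Tnfsf or Tnfrsf, together with Tnf, Lta, Ltb, Ltbr, Fas and Fasl. The rule found 37 of 25206 gene-level features: 14 ligands, 22 receptors and Tnfsf13os, a non-coding transcript of the opposite strand at the Tnfsf13 locus that encodes neither. Expression was measured in thioglycollate-elicited peritoneal macrophages, phagocytes that an irritant broth draws into the abdominal cavity of the mouse. The cells came from 3 mice with the genotype Tet2-/-, which by their label lack the DNA demethylation enzyme Tet2, and from 3 wild-type littermates, all of the strain C57BL/6J. All 6 cultures received lipopolysaccharide at 10 ng/mL and interferon gamma at 2 ng/mL for 10 h, so both groups describe the stimulated state and no unstimulated culture was compared. The sources used here do not state the age or sex of the mice, the kind of Tet2 allele or the cells that carry it. By label the samples within a group are biological replicates, and the series design names 3 mice per group.

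Ligands of this family are mostly membrane proteins that assemble as trimers, and many are cut from the cell surface into a soluble form. Their receptors cluster on binding and recruit TRAF adaptors, which lead to NF-kB and kinase signalling, or, where the receptor has a death domain, adaptors that can lead to apoptosis or necroptosis. Decoy receptors bind ligand without passing on a signal. Stimulated macrophages are a major source of TNF, which acts back on them through its receptors Tnfrsf1a and Tnfrsf1b.

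The values are log2 expression after robust multi-array averaging, a method that brings all arrays to a shared distribution. The median log2 value of an array was 3.54 to 3.66 for wild-type and 3.47 to 3.60 for Tet2-deficient samples, and Pearson correlations between arrays ran from 0.988 to 0.991 within groups and from 0.983 to 0.987 across them. A change below is the Tet2-deficient mean minus the wild-type mean on the log2 scale, with the standard error of a limma fit over all features (n = 3 arrays per group) and a p adjusted over all features, and a gene was called at an adjusted p below 0.05. The feature for Tet2 was not lower in the Tet2-deficient arrays (5.55, 5.25 and 5.75 against 5.40, 5.07 and 5.10, limma adjusted p = 0.365). The sources used here do not say which part of the gene its probes read, so this is no check of the genotype, and each direction below rests on the labels. All 7 measured general macrophage markers lay above the array median on all arrays, as did 8 of 10 resident peritoneal macrophage, 5 of 5 monocyte, 7 of 11 mesothelial and fibroblast, 3 of 5 endothelial and 3 of 8 B cell markers. Below it on all arrays were 8 of 10 neutrophil, 9 of 11 T and NK cell, 8 of 9 mast cell and eosinophil and 5 of 7 dendritic cell markers. Some macrophage markers differed between the groups. The mean log2 level of resident peritoneal macrophage markers was 5.32 to 5.72 in the wild-type and 6.23 to 6.67 in the Tet2-deficient arrays, and 3 of 10 rose (Timd4, Prg4 and F5). That of general macrophage markers was 9.76 to 9.82 and 10.01 to 10.15, and 2 of 7 rose (Cd14 and Itgam), where 0.647% of all features rose. Groups were higher without overlap for 7 of the 10 resident and 4 of the 7 general markers, beside 9.74% of all features. Gata6, Selp and Cd93 among the resident markers had overlapping groups. So had the general markers Fcgr1 (-0.51 ± 0.19), Mertk (-0.10 ± 0.12) and Cd68 (0.00 ± 0.11). Pdgfrb, 1 of the 11 mesothelial and fibroblast markers, rose as well. The part of these markers' cells in the results below was not tested. In such bulk RNA, a change in the share of a cell type and a change in RNA per cell cannot be told apart.

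Among the family, the receptor gene Tnfrsf26 rose 1.79-fold in Tet2-deficient macrophages, and it was the only member past the threshold. This is 1 of 37 members (2.70%), beside 0.952% of all features called in either direction (0.647% higher and 0.305% lower). The other 36 members did not pass. They included Tnf itself and both of its receptors, the death ligand Fasl and its receptor Fas, and the lymphotoxin genes. Of the 37 members, 16 had groups that did not overlap, which is 43.2% beside 22% of all features. All Tet2-deficient arrays were higher for 9 of them, beside 9.74% of all features, and lower for 7, beside 12.2%. An unadjusted p below 0.05 was reached by 9 members (24.3%, beside 16% of all features), and 7 had an adjusted p below 0.25, where 12% of all features did. Changes ran from -0.55 for the ligand gene Tnfsf13 to 0.84 for Tnfrsf26, with a median of -0.01 (-0.04 over all features).

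**Figure D1:**
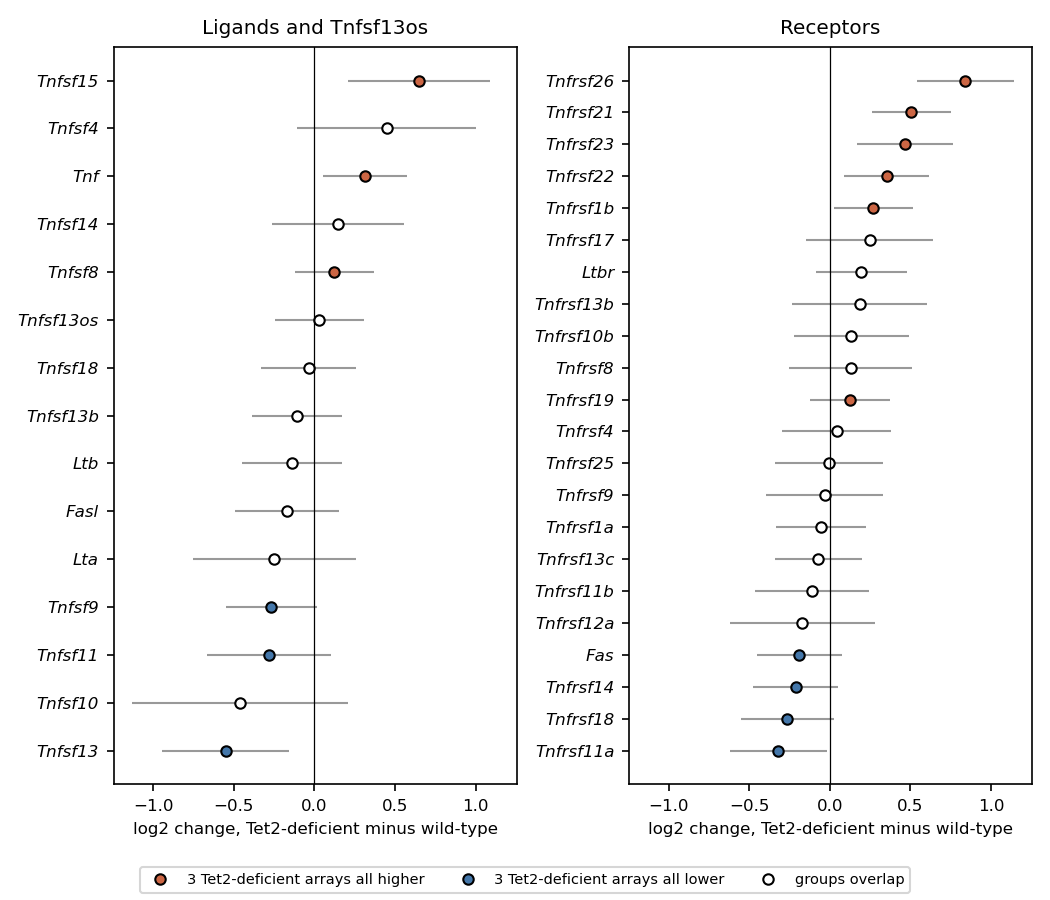
Log2 change (x axis, Tet2-deficient minus wild-type) of each family member, ligands with Tnfsf13os on the left and receptors on the right; points are limma estimates, lines their 95% intervals (n = 3 arrays per group). Colours mark members whose groups did not overlap: 9 were higher and 7 lower in the Tet2-deficient arrays, and Tnfrsf26 has the highest estimate.

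Promoter sequences from RefSeq (build GRCm38.p6, 250 bases before to 50 after a transcription start) matched 30 of the 37 members, 4 of them with more than 1 start. Those of Tnf, Tnfsf15, Tnfrsf21 and Tnfrsf23 are shown, 2 ligand and 2 receptor genes chosen after their values were seen: they had the smallest p among the members with a matched promoter that were higher in every Tet2-deficient array. Capitals mark matches to a loose form of the NF-kB motif, the letters GGG, any 5 bases and CC, searched on both strands.
Tnf: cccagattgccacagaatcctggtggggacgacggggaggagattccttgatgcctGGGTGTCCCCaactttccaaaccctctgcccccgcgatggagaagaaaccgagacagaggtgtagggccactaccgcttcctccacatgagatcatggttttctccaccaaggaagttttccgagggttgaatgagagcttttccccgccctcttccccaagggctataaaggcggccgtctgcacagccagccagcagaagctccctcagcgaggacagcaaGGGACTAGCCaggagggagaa
Tnfsf15: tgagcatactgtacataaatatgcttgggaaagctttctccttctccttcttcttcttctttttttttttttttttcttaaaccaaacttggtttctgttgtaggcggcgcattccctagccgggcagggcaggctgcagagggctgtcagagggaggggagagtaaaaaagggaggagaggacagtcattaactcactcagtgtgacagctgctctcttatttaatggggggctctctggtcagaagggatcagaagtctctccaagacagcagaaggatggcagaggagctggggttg
Tnfrsf21: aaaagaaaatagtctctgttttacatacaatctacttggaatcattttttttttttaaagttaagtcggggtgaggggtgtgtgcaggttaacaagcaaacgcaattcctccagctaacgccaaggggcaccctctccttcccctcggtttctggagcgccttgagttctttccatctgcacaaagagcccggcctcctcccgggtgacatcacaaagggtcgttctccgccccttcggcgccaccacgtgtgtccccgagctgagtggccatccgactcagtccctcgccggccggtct
Tnfrsf23: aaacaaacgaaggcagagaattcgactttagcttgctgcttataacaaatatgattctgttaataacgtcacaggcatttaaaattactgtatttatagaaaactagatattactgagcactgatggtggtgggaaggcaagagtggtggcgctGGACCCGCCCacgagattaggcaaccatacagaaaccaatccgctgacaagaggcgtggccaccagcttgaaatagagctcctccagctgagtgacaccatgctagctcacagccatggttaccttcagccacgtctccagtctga
They lie at chr17:35201958-35202257, minus strand (Tnf), chr4:63745010-63745309, minus strand (Tnfsf15), chr17:43016305-43016604, plus strand (Tnfrsf21) and chr7:143685826-143686125, minus strand (Tnfrsf23), each printed 5′ to 3′ on its gene's strand. The windows of Tnf and Tnfrsf23 hold 2 and 1 matches, and those of Tnfsf15 and Tnfrsf21 hold 0. The letters are common: 50.8% of all 32851 promoters and 21 of the 34 member promoters (61.8%) hold at least 1 match, and matches may overlap each other. CG dinucleotides, the usual place of 5-methylcytosine, numbered 11 in the window of Tnf, 3 in that of Tnfsf15, 17 in that of Tnfrsf21 and 9 in that of Tnfrsf23, with a median of 7 over all promoters.

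Tnfrsf26 lies on chromosome 7 directly beside Tnfrsf22 and Tnfrsf23, with no other measured named gene between them. Tnfrsf22 and Tnfrsf23 are decoy receptors for the ligand TRAIL (gene Tnfsf10) that lack a death domain, and Tnfrsf26 is their close relative. All 3 genes were higher in each Tet2-deficient array than in any wild-type array. Tnfrsf26 had log2 levels of 4.27, 4.12 and 4.02 in wild-type replicates 1 to 3 and of 5.15, 4.81 and 4.96 in Tet2-deficient replicates 1 to 3. Its change was 0.84 ± 0.13, a fold of 1.79 with a 95% interval of 1.45 to 2.21 (limma adjusted p = 0.0266). Leaving out Tet2-deficient replicate 2 or wild-type replicate 1 kept the call, and leaving out any of the other 4 arrays ended it (adjusted p over the 6 fits 0.0443 to 0.124), while the change stayed between 0.75 and 0.92.

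For Tnfrsf23 the wild-type levels were 4.31, 3.98 and 4.34, and the Tet2-deficient levels were 4.60, 4.71 and 4.71. The groups were separate, by less than the spread of the wild-type arrays, with a change of 0.47 ± 0.13 that did not pass (limma adjusted p = 0.130). Tnfrsf22 was measured at 4.03, 3.81 and 4.01 in wild-type and at 4.28, 4.34 and 4.28 in Tet2-deficient arrays. Here too the groups were separate, and the change of 0.35 ± 0.12 did not pass (adjusted p = 0.184). In both genes wild-type replicate 2 was the lowest of the 6 arrays, which was not so for Tnfrsf26. These genes are near copies of each other, so their features may share signal. The sources used here hold no probe sequences, and this was not tested.

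The genes around the cluster were looked at after the values of the 3 receptors had been seen. Of 16 measured named neighbours, 8 on each side, 0 passed the threshold with limma, beside 0.952% of all features. Groups were higher without overlap for 2 of the 16 and lower for 2, beside 9.74% and 12.2% of all features. Changes of the 16 ran from -0.73 to 0.58 with a median of 0.02. The nearest on either side were Cars, a cysteinyl-tRNA synthetase gene, with a change of 0.09 ± 0.11, and Osbpl5, an oxysterol-binding protein gene, with 0.20 ± 0.19. The lowest and highest changes among the 16 were those of Cdkn1c, an imprinted cell cycle inhibitor, at -0.73 ± 0.25, and, at the end of the window, of Cttn, the gene of the actin regulator cortactin, at 0.58 ± 0.11 (limma adjusted p = 0.0540). Cars and Osbpl5 thus had smaller changes than each of the 3 receptor genes, and the difference was not tested.

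**Figure D2:**
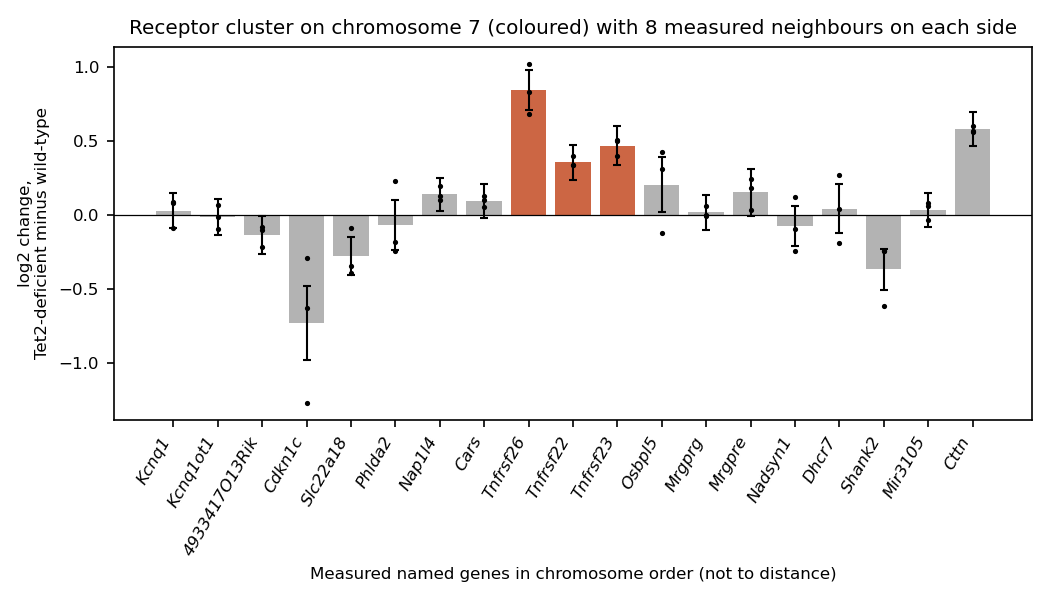
Log2 change (y axis, Tet2-deficient minus wild-type) of the 3 clustered receptor genes (coloured) and of 8 measured named genes on each side, in chromosome order without distances; bars are limma estimates with their standard errors and dots the 3 Tet2-deficient arrays relative to the wild-type mean. The receptor genes stand at 0.84, 0.35 and 0.47, while Cars and Osbpl5 beside them stand at 0.09 and 0.20.

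Tnfrsf21, a death domain receptor also called death receptor 6, had the next smallest p of the family. Its wild-type levels were 6.74, 6.76 and 6.68, and its Tet2-deficient levels were 7.18, 7.27 and 7.25. Within each group the arrays lay close together and the groups were far apart, with a change of 0.51 ± 0.11, or 1.42-fold with a 95% interval of 1.20 to 1.69. It did not pass the threshold (limma adjusted p = 0.0689). It passed when arrays were weighted (0.0452), when dim features were left out (0.0270) and under a robust prior with a trend (0.0219), and in 0 of the 6 fits that left out an array (0.117 to 0.218).

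Among ligands, Tnfsf15 and Tnfsf13 lay farthest from 0, in opposite directions. Tnfsf15 encodes TL1A, a ligand of the death domain receptor Tnfrsf25 that costimulates T cells and is made by stimulated myeloid cells. In wild-type arrays it was measured at 8.50, 8.18 and 7.87, and in Tet2-deficient arrays at 9.15, 8.57 and 8.76. The groups were separated by less than 0.1, between wild-type replicate 1 and Tet2-deficient replicate 2, and the arrays of each group were spread widely. The change of 0.65 ± 0.20 (1.57-fold, 95% interval 1.16 to 2.13) did not pass (limma adjusted p = 0.150). The receptor gene Tnfrsf25 had a change of -0.01 ± 0.15, with overlapping groups.

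Tnfsf13 encodes APRIL, a survival factor for B cells and plasma cells. Levels of 4.66, 4.47 and 4.76 in wild-type stood against 3.80, 4.44 and 3.99 in Tet2-deficient arrays. Tet2-deficient replicate 2 lay just under wild-type replicate 2, and the other Tet2-deficient arrays lay well below. The change was -0.55 ± 0.17 (limma adjusted p = 0.167). In the RefSeq table Tnfsf13 overlaps the read-through gene Tnfsfm13, and the antisense transcript Tnfsf13os overlaps both. Tnfsf13os had a dim signal, below the array median on all arrays, and a change of 0.03 ± 0.12. The related ligand gene Tnfsf13b (BAFF) had a change of -0.11 ± 0.12 (adjusted p = 0.738).

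The receptors of these ligands are best known from B cells, and their signals were read beside B cell markers. Tnfrsf13b (TACI) had log2 levels of 2.93, 2.25 and 2.27 in Tet2-deficient and 2.21, 2.41 and 2.26 in wild-type arrays, so that only Tet2-deficient replicate 1 stood out. That array also had the highest mean level of the 8 measured B cell markers (4.39, beside 3.56 and 3.96 in the other Tet2-deficient arrays and 3.86 to 4.13 in wild-type arrays). Among Tet2-deficient arrays its widest lead was in Ighm (7.04, beside 4.27 and 5.38), while Cd22 and Fcrla were higher in replicate 3. Among wild-type arrays, replicate 1 had the highest mean of these markers (4.13) and the lowest Tnfrsf13b level (2.21). Tnfrsf13b was dim, below the array median on all arrays. The part of B cells in its signal was not tested. Tnfrsf13c (the BAFF receptor) had a change of -0.07 ± 0.12, and Tnfrsf17 (BCMA), which was also below the array median on all arrays, had 0.25 ± 0.17. Among Tet2-deficient arrays, replicate 1 had the highest Tnfrsf13c level (5.64, beside 5.44 and 5.43). It had the lowest Tnfrsf17 level (1.68, beside 2.30 and 2.10).

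**Figure D3:**
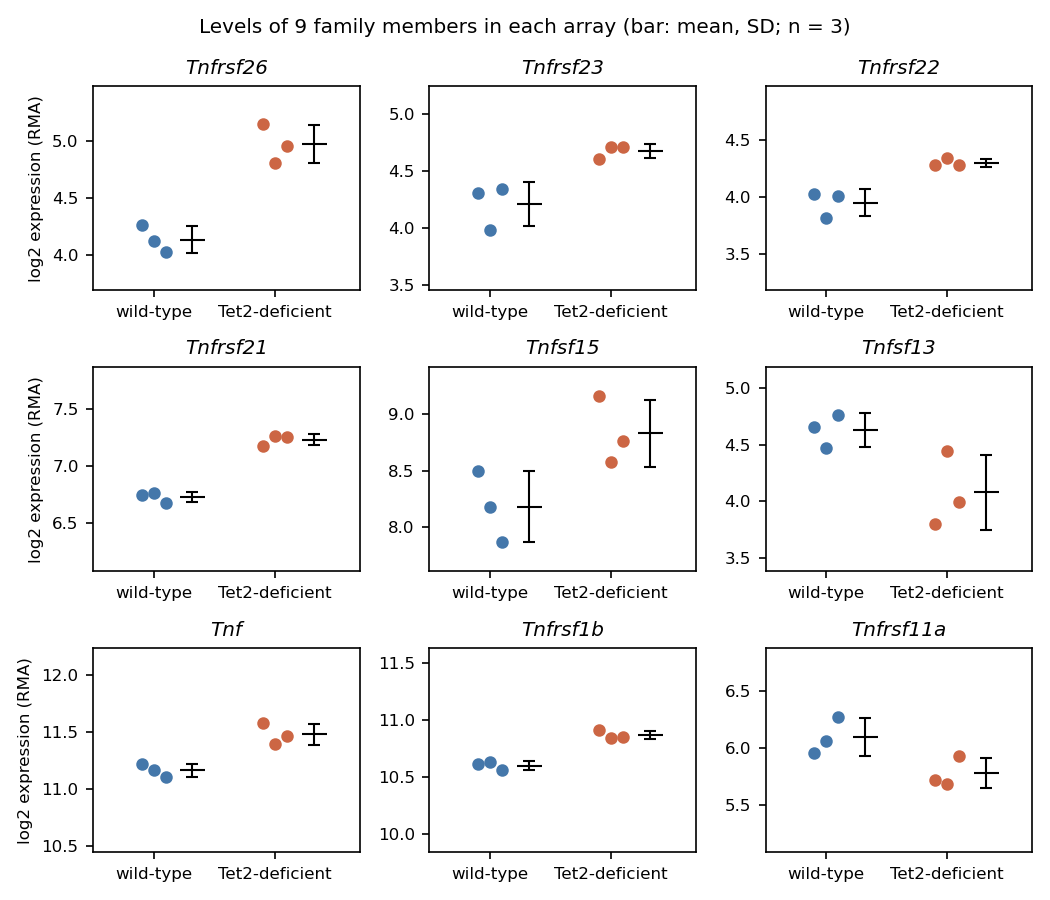
Log2 expression (y axis) of the 9 members with the smallest p in each array, with the group mean and SD beside the points (n = 3 arrays per group); all panels span the same range of log2 units. The groups do not overlap in any of the 9 panels: Tnfsf13 and Tnfrsf11a are lower in the Tet2-deficient arrays and the other 7 are higher, while Tnfrsf26 alone passed the threshold.

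No gene of the central inflammatory axis, TNF and its receptors, passed the threshold. Tnf was measured at 11.22, 11.17 and 11.10 in wild-type and 11.58, 11.39 and 11.47 in Tet2-deficient arrays. Each Tet2-deficient array lay above each wild-type array, and the 95% interval of the fold ran from 1.04 to 1.49, with a change of 0.32 ± 0.12 that did not pass (limma adjusted p = 0.221). Under the robust prior with a trend it passed (0.0437), as in none of the other 12 alternatives. Tnfrsf1b, the TNF receptor without a death domain, was measured at 10.61, 10.63 and 10.56 in wild-type and 10.91, 10.85 and 10.85 in Tet2-deficient arrays. These groups were again separate, and the change of 0.27 ± 0.11 did not pass (adjusted p = 0.265). Tnfrsf1a, the death domain receptor of TNF, showed overlapping groups (8.37, 8.30 and 8.60 against 8.34, 8.33 and 8.43) and a change of -0.05 ± 0.12, whose sign turned to positive with arrays centred on their medians and without wild-type replicate 3. Its 95% interval of -0.33 to 0.22 bounds a difference in either direction.

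Lta and Ltb flank Tnf on chromosome 17 and encode the lymphotoxin subunits, which together bind the receptor Ltbr. Neither lay on the same side as Tnf. Lta was at 4.82, 4.30 and 4.50 in wild-type and 4.80, 4.13 and 3.94 in Tet2-deficient arrays, with wide spread, overlapping groups and a change of -0.25 ± 0.23 (limma adjusted p = 0.649). Ltb was at 4.33, 4.08 and 4.30 against 4.30, 4.06 and 3.93, with a change of -0.14 ± 0.14 and overlapping groups. Ltbr was at 6.60, 6.74 and 6.73 in wild-type and 7.03, 6.89 and 6.72 in Tet2-deficient arrays. Its groups overlapped through Tet2-deficient replicate 3 alone, and the change was 0.20 ± 0.13 (adjusted p = 0.503). Tnfsf14 (LIGHT), another ligand of Ltbr, had 0.14 ± 0.18 with overlapping groups. Its other receptor Tnfrsf14 (HVEM) was at 8.50, 8.46 and 8.67 in wild-type and lower, at 8.37, 8.27 and 8.36, in each Tet2-deficient array, with a change of -0.21 ± 0.12 (adjusted p = 0.430).

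The death-inducing ligands and their receptors did not pass either. Fas, the death domain receptor CD95, was at 7.97, 7.91 and 7.90 in wild-type and 7.63, 7.73 and 7.86 in Tet2-deficient arrays. The groups were separate by a narrow margin, and the change was -0.19 ± 0.12 (limma adjusted p = 0.483). Fasl, its ligand and a gene of cytotoxic lymphocytes, gave a dim signal below the array median on all arrays (1.80, 2.09 and 2.00 against 1.78, 1.60 and 2.01), with a change of -0.17 ± 0.14. Tnfsf10, the gene of TRAIL, varied most among the Tet2-deficient arrays of any member. Its levels were 5.28, 5.05 and 5.47 in wild-type and 5.33, 4.01 and 5.08 in Tet2-deficient arrays, so Tet2-deficient replicate 2 stood far below the other 5. The change was -0.46 ± 0.30 (adjusted p = 0.505), and without that array it was -0.06. Tnfrsf10b, the death domain receptor of TRAIL in the mouse, had a change of 0.13 ± 0.16 with overlapping groups and lay below the array median on all arrays.

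Tnfrsf11a (RANK) and Tnfsf11 (RANKL), the pair that drives osteoclast formation from myeloid precursors, were both lower in every Tet2-deficient array. Tnfrsf11a was at 5.95, 6.07 and 6.28 in wild-type and 5.72, 5.69 and 5.93 in Tet2-deficient arrays. The margin between wild-type replicate 1 and Tet2-deficient replicate 3 was narrow, and the change of -0.32 ± 0.13 did not pass (limma adjusted p = 0.282). Tnfsf11 lay below the array median on all arrays, at 2.91, 3.52 and 2.91 against 2.88, 2.82 and 2.79. Wild-type replicate 2 alone was far above the rest. The change was -0.28 ± 0.17 (adjusted p = 0.471), and -0.08 without wild-type replicate 2. The decoy receptor of RANKL, Tnfrsf11b (osteoprotegerin), had -0.11 ± 0.16.

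The costimulatory pairs, which act between antigen-presenting cells and T cells, gave small changes of both signs. Tnfsf9 (the ligand of CD137) was at 6.70, 7.01 and 6.83 in wild-type and 6.53, 6.57 and 6.63 in Tet2-deficient arrays. All 3 Tet2-deficient arrays were lower, and the change of -0.27 ± 0.12 did not pass (limma adjusted p = 0.338). Its receptor Tnfrsf9 had -0.03 ± 0.16. Tnfrsf18 (GITR) was at 4.82, 4.84 and 4.53 against 4.52, 4.45 and 4.43, with wild-type replicate 3 and Tet2-deficient replicate 1 almost level and a change of -0.26 ± 0.13 (adjusted p = 0.358). Its ligand Tnfsf18 was dim on all arrays and had -0.04 ± 0.13. Tnfsf4 (the OX40 ligand) was at 3.26, 2.76 and 2.24 in wild-type and 3.30, 2.88 and 3.42 in Tet2-deficient arrays, which overlapped, with a change of 0.45 ± 0.25 (adjusted p = 0.423). It lay below the array median on all arrays, as did Tnfsf8 (the CD30 ligand, 0.12 ± 0.11). The receptors Tnfrsf4 (OX40) and Tnfrsf8 (CD30) had changes of 0.04 ± 0.15 and 0.13 ± 0.17. The other receptors were Tnfrsf12a (the TWEAK receptor), at -0.17 ± 0.20, and Tnfrsf19 (TROY), at 0.13 ± 0.11 and dim on all arrays.

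Ligands and receptors were compared as groups by counts and medians, with no test. Of 14 ligands 5 had a positive and 9 a negative change, with a median of -0.12, and 0 passed with limma (3 at an unadjusted p below 0.05). Of 22 receptors 12 were positive and 10 negative, with a median of 0.08, and 1 passed (6 at an unadjusted p below 0.05). Over all features 42.1% were positive and the median was -0.04, while 0.952% passed and 16% had a limma unadjusted p below 0.05. Without the 3 clustered genes of chromosome 7, 9 of 19 receptors were positive and the median was -0.01 (3 at an unadjusted p below 0.05). The medians moved with the scaling, to -0.06 and 0.15 with arrays centred on their medians, and 4 members near 0 changed sign there (Tnfrsf1a, Tnfrsf9, Tnfsf18 and Tnfrsf25). Of 22 ligand and receptor pairs, chosen from textbook knowledge and not a full list, 10 had changes of the same sign. Lta and Ltb were each paired with Ltbr, which they bind together. Lta was not paired with Tnfrsf1a or Tnfrsf1b, and the count depends on such choices. Tnf with Tnfrsf1b, Fasl with Fas, and Tnfsf11 with Tnfrsf11a were among these 10. Tnfsf15 with Tnfrsf25, Tnfsf10 with Tnfrsf22 and Tnfrsf23, and Tnfsf13 with Tnfrsf13b had opposite signs. Of the 14 ligands 8 lay above the array median on all arrays, as did 17 of the 22 receptors. The probes of different genes bind unequally, so this describes the signal and is no order of expression.

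Components that act downstream of the receptors or on the ligands were read in the same fit, from a list of 70 genes of which 64 were measured here. Of the 64, 3 rose (4.69%, beside 0.952% of all features) and 0 fell, and all 3 were among the 17 receptor adaptors and kinases. Without the 9 family members, this was 3 of 55 (5.45%). The listed genes were brighter than most features: 56 of the 64 lay above the array median on all arrays, beside 11199 of 25206 features. With dim features left out, 6 of the listed genes and 846 of 12603 features passed. Map3k5 (ASK1), a stress kinase upstream of JNK and p38, was at 5.45, 5.18 and 4.80 in wild-type and 6.21, 6.27 and 5.96 in Tet2-deficient arrays, a change of 1.00 ± 0.17 (limma adjusted p = 0.0361). Traf1, an NF-kB-induced adaptor of the receptor Tnfrsf1b, was at 7.68, 7.80 and 7.72 against 8.89, 8.31 and 8.61, a change of 0.87 ± 0.16 (adjusted p = 0.0389). Tab2, which links TRAF proteins to the kinase TAK1, was at 7.98, 7.73 and 7.92 against 8.62, 8.47 and 8.80, a change of 0.75 ± 0.13 (adjusted p = 0.0377). The groups of these 3 genes did not overlap. When an array was left out, Map3k5 kept its call only without wild-type replicate 1 (adjusted p over the 6 limma fits 0.0287 to 0.133), Traf1 only without Tet2-deficient replicate 2 (0.0401 to 0.155) and Tab2 in 0 of the 6 (0.0571 to 0.151). Tradd, the adaptor that couples Tnfrsf1a to its signalling complexes, was lower in each Tet2-deficient array (5.87, 5.67 and 5.42 against 6.23, 6.19 and 6.16), with a change of -0.54 ± 0.14 that did not pass (adjusted p = 0.102).

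Of 16 death executors and brakes, 0 passed with limma (3 at an unadjusted p below 0.05), and the smallest p was that of the ubiquitin-editing brake Tnfaip3 (0.50 ± 0.12, adjusted p = 0.0843), followed by the necroptosis executor Mlkl (0.30 ± 0.12), the initiator caspase Casp8 (0.32 ± 0.13) and its inhibitor Cflar (0.27 ± 0.14). Over all features 42.1% had a positive change and 16% a limma unadjusted p below 0.05. All 8 NF-kB subunits and inhibitors had a positive change (median 0.24), and 0 passed with limma (3 at an unadjusted p below 0.05). All 8 also stayed positive with cyclic loess, array weights and each array left out, except without Tet2-deficient replicate 3, where Nfkb2 had -0.01. Median centring added the same 0.066 to every change, so it could not turn a positive change negative. The other alternative runs leave these estimates unchanged by construction. The lead genes among the NF-kB subunits and inhibitors were Nfkbiz (0.48 ± 0.14), Rel (0.44 ± 0.16), Rela (0.28 ± 0.12) and Nfkbia (0.27 ± 0.12). Of 8 genes of ligand shedding and processing 7 were positive and 0 passed (5 at an unadjusted p below 0.05). The sheddase Adam17 itself had 0.12 ± 0.18, the related protease Adam10 had 0.32 ± 0.12, Rhbdf2, which carries Adam17 to the surface, had 0.36 ± 0.12, and Sppl2a, which cuts the remaining stub of TNF, had 0.27 ± 0.12. Timp3, an inhibitor of Adam17, was at 4.20, 5.16 and 3.05 in Tet2-deficient and 2.62, 2.69 and 2.73 in wild-type arrays, a change of 1.45 ± 0.41 (limma adjusted p = 0.132). Its signal was above the array median only in Tet2-deficient replicates 1 and 2. Markers of mesothelium and fibroblasts, cells that also make Timp3, had mean levels of 4.25, 4.80 and 4.02 in the same Tet2-deficient arrays. In the wild-type arrays these means were 3.81, 4.21 and 3.88. The mesothelial markers Upk3b, Msln, Wt1 and Krt19 had changes of 0.06, 0.10, -0.21 and -0.15. The other markers of this list ran from -0.03 (Lum) to 1.26 (Dcn). The part of these cells in the Timp3 signal was not tested.

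**Figure D4:**
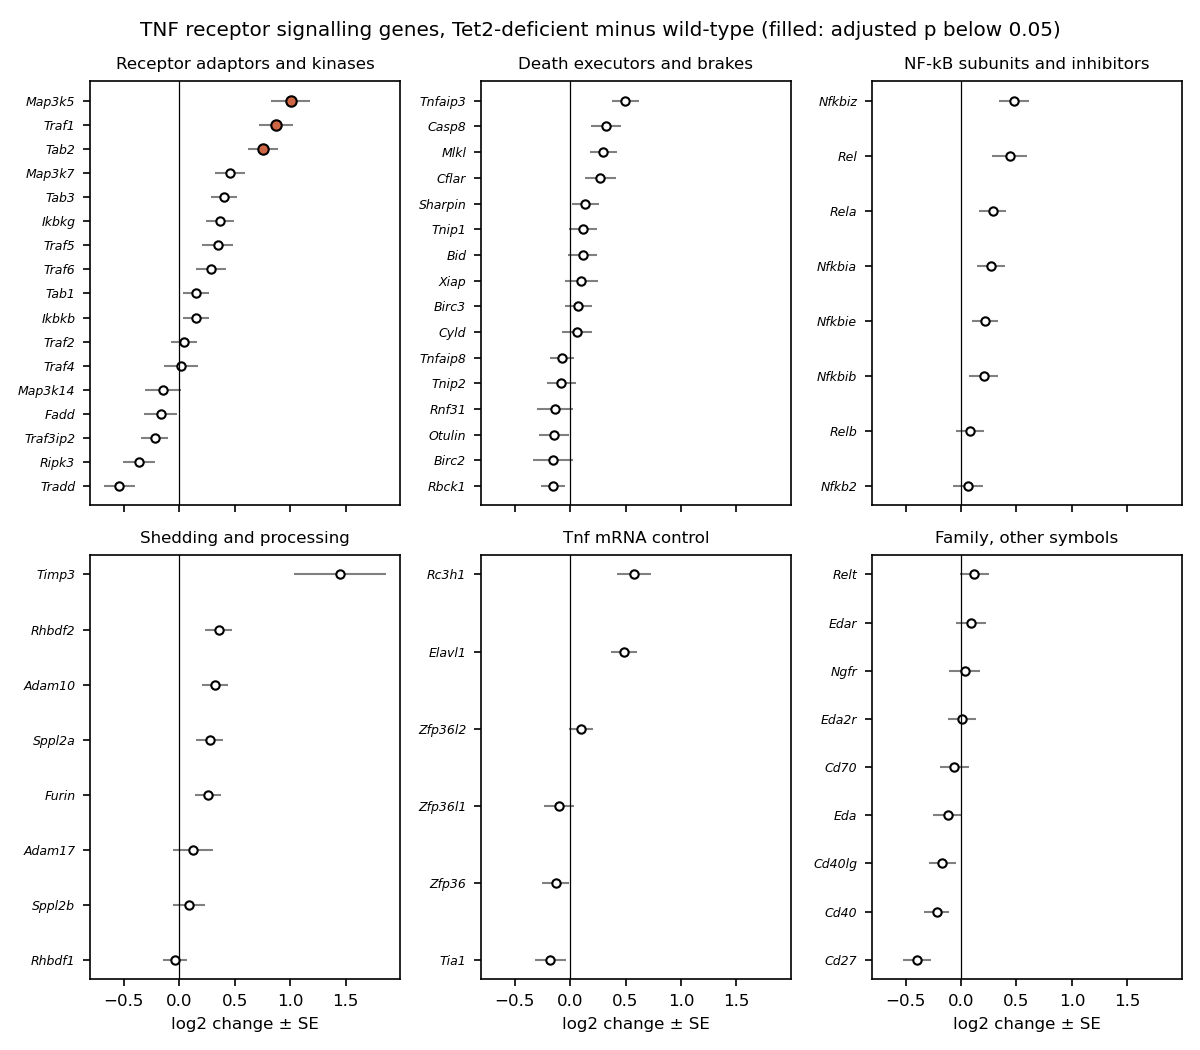
Log2 change (x axis, Tet2-deficient minus wild-type) with its standard error for the 64 measured pathway genes in 6 groups (n = 3 arrays per group). Filled points passed an adjusted p of 0.05: Map3k5, Traf1 and Tab2, all among the receptor adaptors and kinases.

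Of 6 regulators of Tnf mRNA 0 passed with limma (2 at an unadjusted p below 0.05). Elavl1, an RNA-binding protein that stabilises such transcripts, had a change of 0.49 ± 0.11 (adjusted p = 0.0800), and Rc3h1, which promotes their decay, had 0.58 ± 0.15 (adjusted p = 0.110). Zfp36, the gene of the decay factor tristetraprolin, had -0.13 ± 0.12, and the translational repressor Tia1 had -0.18 ± 0.14. The 9 family members under other symbols, which the rule does not take in, gave 0 calls with limma (1 at an unadjusted p below 0.05). Cd40, the receptor through which T cells activate macrophages, was lower in each Tet2-deficient array, at 10.65, 10.57 and 10.69 against 10.84, 10.81 and 10.91, with a change of -0.22 ± 0.11 (adjusted p = 0.379). Cd27, a lymphocyte receptor, had -0.40 ± 0.13 at a dim signal, Cd40lg had -0.17 ± 0.12, and the receptor Relt had 0.12 ± 0.13.

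**Figure D5:**
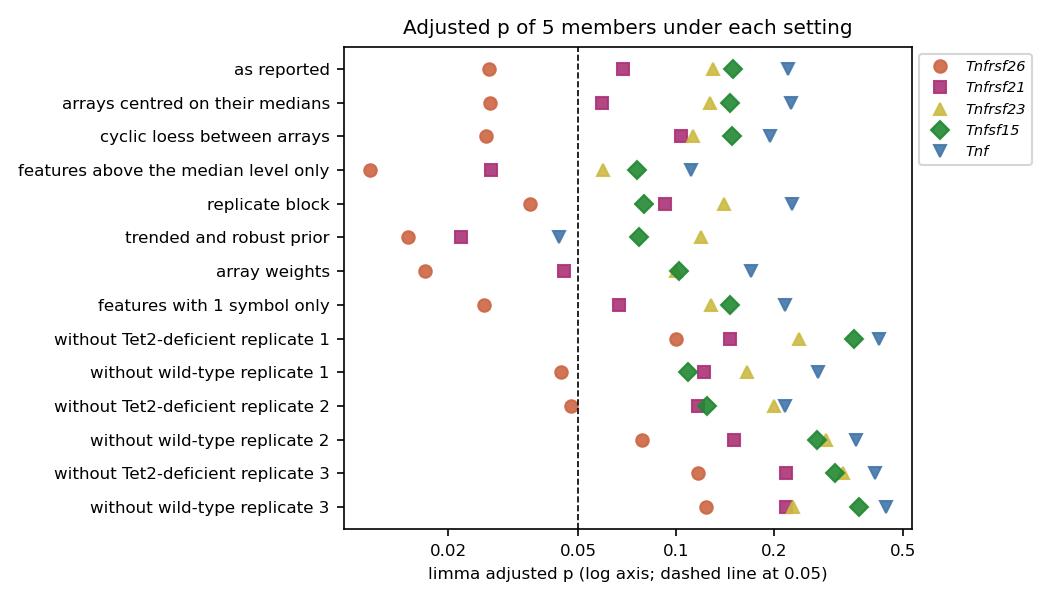
Limma adjusted p (x axis, log scale) of 5 members under the reported setting and 13 alternatives, with a dashed line at 0.05. Tnfrsf26 lies left of the line in the reported setting and in 9 alternatives, Tnfrsf21 in 3, Tnf in 1, and Tnfrsf23 and Tnfsf15 in 0.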

How the data were processed

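The authors deposited log2 expression values of 6 arrays, 3 per group, made by RMA in affy 1.36.1 according to the labels, that is, per the submitters' processing notes. RMA corrects background, normalizes between arrays and summarises probes, so a change shared by all genes would not be seen. The array design, genome build and filters were not given in the sources used here. Values (0.35 to 12.7) were used as deposited. No 2 arrays held the same values (at least 99.66% of features differed). Of 25206 features, 23185 had 1 symbol in the platform annotation, 0 several and 2021 none. All 37 members matched the RefSeq table of GRCm38.p6, which gave names and neighbours.

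The genotype contrast was fitted to the 25206 features in R 4.3.3 (limma 3.58.1, lmFit then eBayes). Tests were two-sided at a Benjamini-Hochberg adjusted p of 0.05. Intervals are 95% intervals of that fit. An exact permutation test of 3 against 3 arrays cannot go below p = 0.1, so none was used. The number of arrays limits the precision. On simulated data (25206 features) 62% of genes changed by 1 and 98% of those changed by 2 on the log2 scale were called, and 3.03% of calls were false. The simulation changed a small share of the features and drew independent normal noise for each. These percentages hold for that setting and may differ in the real arrays.

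The members and lists were chosen with earlier results of these data known. Values in every array are given for 8 genes fixed by name (Tnf, Tnfrsf1a, Tnfrsf1b, Lta, Ltb, Ltbr, Fas and Fasl), members past the threshold and the 16 members with the smallest p, and pathway genes are named if past the threshold or among the 4 smallest p of their part. Other genes (Adam17, Tnfsf10, Tnfrsf13b and the neighbours of Tnfrsf26) were named after their values were seen. Alternatives were median centring, cyclic loess, dim features left out, a replicate block, a trended and robust prior, array weights, features with a symbol only, other thresholds and each array left out.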

Additional observations from a re-analysis of the deposited data

How the results depend on the processing

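Tnfrsf26 kept its call in 9 of 13 alternatives, losing it without wild-type replicate 2 or 3 and without Tet2-deficient replicate 1 or 3. Its direction was the same in all 13, but some of these could not change it. Leaving out dim features or those without a symbol, the replicate block and the trended and robust prior leave its estimate unchanged by construction. Median centring adds the same 0.066 to every change, so it could not turn a positive change negative. Members past the threshold numbered 1 as reported, 2 with dim features left out, 3 under a robust prior with a trend, 2 with array weights, 2 at an adjusted p of 0.10, 7 at 0.25, and 0 to 1 when an array was left out. Over all features the reported 240 became 846, 814, 498, 791 and 3026 in the same order, and 11 to 155 when an array was left out. Leaving out dim features kept 12603 features, 25 of them members. Pathway genes numbered 3 as reported, 6 with dim features left out, 5 with the trended prior, 5 and 16 at the wider thresholds, and 0 to 1 when an array was left out. The share of higher calls among all features was 67.9% as reported, 78.8% with median centring and 59.6% with cyclic loess. The median change of ligands was -0.12 as reported, -0.057 with median centring, -0.074 with cyclic loess, -0.19 for the 8 ligands above the median level, and -0.101 to -0.067 when an array was left out. That of receptors was 0.08 as reported, -0.0071 for the 17 above the median level, and 0.0100 to 0.181 when an array was left out. For these medians the cause was not tested. The labels do not say whether the replicate numbers pair the samples. Across the groups, deviations of same-numbered arrays correlated at 0.0838, 0.191 and 0.0248, and those of differently numbered arrays at -0.137 to 0.0636. So few and small correlations cannot decide whether the numbers mark a pairing. With the replicate number as a block in limma, 230 features, 1 member and 2 pathway genes passed, Traf1 being the pathway gene that did not (adjusted p = 0.0576). Dim features, such as 11 of the 37 members below the array median on all arrays, may understate changes, which was not tested.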
